A study of Homo sapiens with 40 samples.

Results

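The values described here are those of 10 genes, 9 chemokines (CXCL1, CXCL2, CXCL3, CXCL8, CXCL10, CXCL12, CXCL16, CCL20 and CCL28) and the receptor CXCR4, taken as the rows that carry these names among the 44584 gene names of the count table. All 10 were found, each as 1 row. They were measured by RNA sequencing in BT474, an established HER2-positive breast cancer line that is sensitive to trastuzumab, and in BT474R, a trastuzumab-resistant line that is 1 clone grown out of BT474 under the antibody. Both lines were starved of serum, and T0 was collected at the end of the starvation. The other groups then received fresh starvation medium with EGF (epidermal growth factor) at 50 ng/mL, with HRG (heregulin) at 10 ng/mL, or with water as vehicle, for 1 h, 12 h or 24 h. Each of the 20 groups has 2 libraries, 40 in all. Each ligand was set against the vehicle group of its own time, which asks what the ligand changed, and the comparison of the lines asks where the resistant clone differed. The doses of EGF and HRG differ, so a difference between them is one between these 2 treatments. The study describes the treatments as done in duplicate and does not say whether the duplicates were grown or treated on separate occasions, so p-values measure only the spread between these samples, which may be technical.

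Chemokines are small secreted proteins that direct the movement of leukocytes and other cells along a gradient, through receptors that couple to G proteins. CXCL1, CXCL2, CXCL3 and CXCL8 (interleukin 8) draw neutrophils through CXCR1 and CXCR2, and their genes are textbook targets of NF-kappaB and AP-1. CXCL10 is induced by interferons and acts on CXCR3, CCL20 acts on CCR6, and CCL28 is an epithelial chemokine that acts on CCR10 and CCR3. CXCL12 is the ligand of CXCR4 and of the scavenging receptor ACKR3, and this axis is known for its part in the spread of breast cancer cells. CXCL16 is made as a membrane protein that ADAM10 and ADAM17 can cut, and its receptor is CXCR6.

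The libraries held between 16794594 and 33387936 counts. Levels are CPM, counts per 1000000 counts of the library, scaled by TMM factors of between 0.936 and 1.08. A group in which neither library had more than 3 counts of a gene was taken as at the detection limit, and 3 counts were worth between 0.0929 and 0.180 CPM in these libraries. Both lines held their epithelial and luminal markers: all 10 on the list, ERBB2 and KRT8 among them, had a mean of at least 1 CPM. GATA3, on the same list, averaged 444 CPM in BT474 and 35.4 CPM in BT474R. Of 10 leukocyte markers, CD68 alone reached a mean of 1 CPM in either line, and the sum of the list was between 1.55 and 5.70 CPM in any library. PTPRC, which every leukocyte carries, did not exceed 0.0956 CPM. Of 10 markers of stroma and endothelium, COL1A1, VIM and VWF reached a mean of 1 CPM, and the list summed to between 122.5 and 407.1 CPM in any library. COL1A1 averaged 89.1 CPM in BT474 and 213 CPM in BT474R, VIM 33.7 and 55.4 CPM, and VWF 17.9 and 11.4 CPM. The others on the list did not exceed 0.895 CPM in any library, and PDGFRB and DCN stayed below 0.05 CPM. In bulk RNA, fewer cells that express a gene and less RNA per cell cannot be told apart.

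The promoters of CXCL8, CXCL1, CXCL10, CXCL12 and CXCR4 are shown because these genes cover the patterns described below. CXCL8 moved within 1 h and CXCL1 was barely detected, CXCL10 was counted after EGF in BT474R, and CXCL12 and CXCR4 moved in opposite directions at 12 h and 24 h in BT474. Each is the stretch of 250 bases before the annotated start of transcription in RefSeq (GRCh38.p14), written 5′ to 3′ on the strand of the gene. The regions are chr4:73740319-73740568 on the plus strand for CXCL8, chr4:73869143-73869392 on the plus strand for CXCL1, chr4:76023498-76023747 on the minus strand for CXCL10, chr10:44385098-44385347 on the minus strand for CXCL12, and chr2:136118150-136118399 on the minus strand for the first of the 3 starts of CXCR4. Capitals mark matches, on either strand, to AP-1 (TGANTCA), a short kappaB motif (GGNNNTTCC), the interferon-gamma activated site GAS (TTCNNNGAA) or a short interferon-stimulated response element, ISRE (GAAANNGAA).
CXCL8: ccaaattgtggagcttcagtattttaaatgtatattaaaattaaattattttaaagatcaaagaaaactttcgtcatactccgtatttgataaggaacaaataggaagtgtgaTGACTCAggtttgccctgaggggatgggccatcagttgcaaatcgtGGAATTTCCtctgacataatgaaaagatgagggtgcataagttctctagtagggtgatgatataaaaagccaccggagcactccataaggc
CXCL1: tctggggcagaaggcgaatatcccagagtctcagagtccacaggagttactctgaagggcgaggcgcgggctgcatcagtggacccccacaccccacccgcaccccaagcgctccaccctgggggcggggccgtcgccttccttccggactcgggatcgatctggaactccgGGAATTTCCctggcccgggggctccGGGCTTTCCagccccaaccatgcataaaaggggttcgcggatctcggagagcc
CXCL10: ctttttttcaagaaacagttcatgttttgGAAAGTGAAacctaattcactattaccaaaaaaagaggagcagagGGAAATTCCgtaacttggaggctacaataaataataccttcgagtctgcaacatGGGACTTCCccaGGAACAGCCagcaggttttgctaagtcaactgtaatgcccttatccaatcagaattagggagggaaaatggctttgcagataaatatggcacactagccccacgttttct
CXCL12: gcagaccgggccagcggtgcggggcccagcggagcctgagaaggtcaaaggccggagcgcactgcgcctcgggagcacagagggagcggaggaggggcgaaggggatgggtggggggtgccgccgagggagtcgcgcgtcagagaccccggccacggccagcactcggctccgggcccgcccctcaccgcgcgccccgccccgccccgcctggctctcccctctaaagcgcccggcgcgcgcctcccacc
CXCR4: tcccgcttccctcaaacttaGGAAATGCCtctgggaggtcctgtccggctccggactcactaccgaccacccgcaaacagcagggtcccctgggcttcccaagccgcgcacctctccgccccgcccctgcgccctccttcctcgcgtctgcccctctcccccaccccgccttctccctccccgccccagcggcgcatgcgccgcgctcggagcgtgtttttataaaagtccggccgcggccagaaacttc
In these letters, CXCL8 has 1 AP-1 match, 137 to 131 bases before the start, and 1 kappaB match, 91 to 83 bases before it. CXCL1 has 2 kappaB matches, and CXCL2 and CXCL3 each have the same 2 runs of letters, GGAATTTCC and GGGCTTTCC, and 1 ISRE match. CXCL10 has 3 kappaB matches and 1 ISRE match, and CXCR4 has 1 kappaB match on the minus strand. No match was found for CXCL12 or CCL28, and CCL20 has 1 kappaB match. Of 35116 promoters of the same length, 6.57% hold the AP-1 letters, 17.1% the kappaB letters, 6.57% the GAS letters and 6.88% the ISRE letters. No matches overlapped. A promoter was found for 9 of the 10 genes, the exception being CXCL16.

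The 10 genes fell into groups by level. CXCL12, CXCL16 and CXCR4 were above the detection limit in all 20 groups, whereas CXCL2, CXCL3 and CCL20 were at it in all 20. CXCL1, CXCL8, CXCL10 and CCL28 lay in between. Per kilobase of exon, the mean over the 20 libraries of a line was highest for CXCR4, with 4.63 CPM per kb in BT474 and 20.7 in BT474R. CXCL16 followed with 1.43 and 2.46 CPM per kb, and CXCL12 with 1.30 and 1.41. The mean level of CXCL8 was 0.237 CPM per kb in BT474 and 0.183 in BT474R. No other member exceeded 0.0828 CPM per kb in either line. The map of counts shows this split, with CXCL8 and CXCL10 above the limit in some groups of both lines and CCL28 in BT474 alone.

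**Figure D1:**
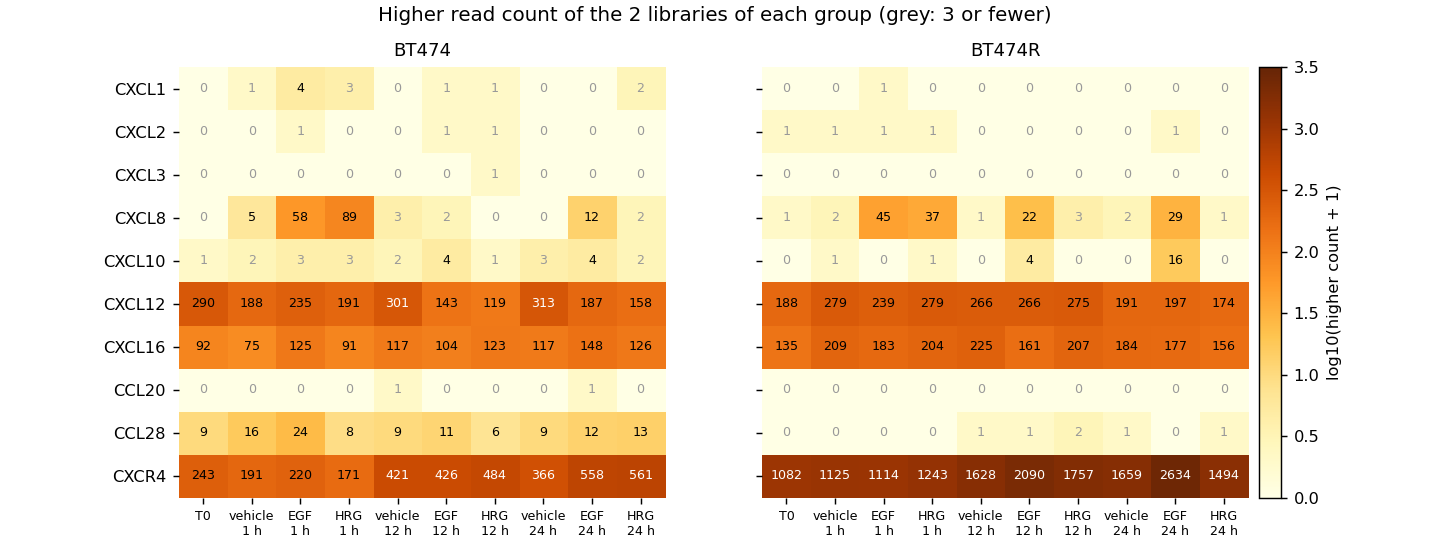
For each of the 10 genes (vertical axis) and each group (horizontal axis), the higher of the counts in its 2 libraries is printed and shaded on a log10 scale, with BT474 on the left and BT474R on the right. Counts of 3 or fewer are grey. CXCL12, CXCL16 and CXCR4 are above that limit in every column, and CCL28 is above it in the 10 groups of BT474 only.

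CXCL8 rose within 1 h of either ligand in both lines. In BT474, its libraries had 0 and 0 counts at T0 and 5 and 3 in vehicle at 1 h, against 51 and 58 with EGF and 89 and 61 with HRG. In levels, vehicle had 0.229 and 0.126 CPM, EGF 1.80 and 2.05 CPM, and HRG 4.02 and 2.92 CPM. The ligand libraries all lay above the vehicle libraries, and those with HRG above those with EGF. The fitted log2 fold change over vehicle was 3.40 (SE 0.430) with EGF and 4.26 (SE 0.398) with HRG, with adjusted p of 7.3e-07 and 5.78e-10 by edgeR's quasi-likelihood test. HRG over EGF was 0.87 on the log2 scale (SE 0.243), with an adjusted p of 0.377. CXCL8 was the only member called at 1 h in BT474, where 2.19% of all genes were called with EGF and 2.77% with HRG.

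In BT474R at 1 h, CXCL8 had 2 and 0 counts in vehicle, 35 and 45 with EGF, and 37 and 24 with HRG. The levels with a ligand were 1.36 and 1.84 CPM for EGF and 1.24 and 0.909 CPM for HRG, and no ligand library overlapped the vehicle. With 2 counts in all in the vehicle, the ratio over it was 44.5 for EGF, with a 95% interval of 11.9 to 374, and 30.4 for HRG, with an interval of 8.05 to 256. These intervals are exact and cover counting error only. Both were called, with adjusted p of 1.08e-04 for EGF and 0.00233 for HRG, and CXCL8 was again the only member called, beside 0.457% and 0.169% of all genes. Without the vehicle library that had 0 counts, replicate 2, the adjusted p for HRG was 0.201. The effect of a ligand on CXCL8 at 1 h was not called different between the lines: the difference was 1.87 (SE 1.13) on the log2 scale for EGF and 0.46 (SE 0.989) for HRG, with adjusted p of 0.884 and 0.977.

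At 12 h, CXCL8 was back at the limit in BT474. It had 2 and 3 counts in vehicle, 2 and 0 with EGF, and 0 and 0 with HRG, so all 3 groups were at the limit. The effect of HRG at 12 h was smaller than at 1 h with an adjusted p of 3.1e-04, in a comparison where 14.2% of all genes were called. The same comparison for EGF gave an adjusted p of 0.0246, with 7.72% of all genes called. This call was lost without vehicle replicate 2 at 1 h (0.0752), vehicle replicate 1 (0.0665) or 2 (0.212) at 12 h, or EGF replicate 2 at 12 h (0.108). At 24 h in BT474, EGF had 12 and 5 counts against 0 and 0 in vehicle, which is at least 2.64-fold higher when the vehicle is set to 3 counts per library. This was called, with an adjusted p of 8.85e-04. HRG had 2 and 2 counts and stayed at the limit. In vehicle at 1 h against T0, CXCL8 and CXCL12 were the 2 members called in BT474, beside 6.61% of all genes. For CXCL8 the adjusted p was 0.0423, and this call was lost without any 1 of the 4 libraries (adjusted p of 0.0688 to 0.243).

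In BT474R, CXCL8 stayed up with EGF. At 12 h, EGF had 22 and 19 counts (0.864 and 0.888 CPM) against 1 and 0 in vehicle, a ratio of 45.4 with an interval of 7.70 to 1836. At 24 h, EGF had 18 and 29 counts (0.785 and 1.18 CPM) against 0 and 2, a ratio of 23.4 with an interval of 6.13 to 199. Both were called, with an adjusted p of 3.72e-04 each. HRG had 3 and 0 counts at 12 h and 0 and 1 at 24 h, at the limit as the vehicle was.

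The treatments themselves differed in BT474R. CXCL8 was higher with EGF than with HRG by a ratio of 15.7 at 12 h (interval 5.02 to 79.4) and 42.4 at 24 h (interval 7.24 to 1708), with adjusted p of 0.00541 and 8.42e-04. The call at 12 h was lost without HRG replicate 2 (adjusted p = 0.122) or EGF replicate 1 (adjusted p = 0.0613). Fitted on the 4 libraries alone, neither call held, with adjusted p of 0.0883 at 12 h and 0.233 at 24 h, while the adjusted p ranged from 1.07e-07 to 0.0883 and from 1.43e-09 to 0.233 over all alternatives. The difference between the lines in the EGF effect at 12 h had an adjusted p of 0.0465 and was lost without any 1 of 7 of the 8 libraries, with adjusted p of 0.054 to 0.313. At 24 h the same difference had an adjusted p of 0.749.

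**Figure D2:**
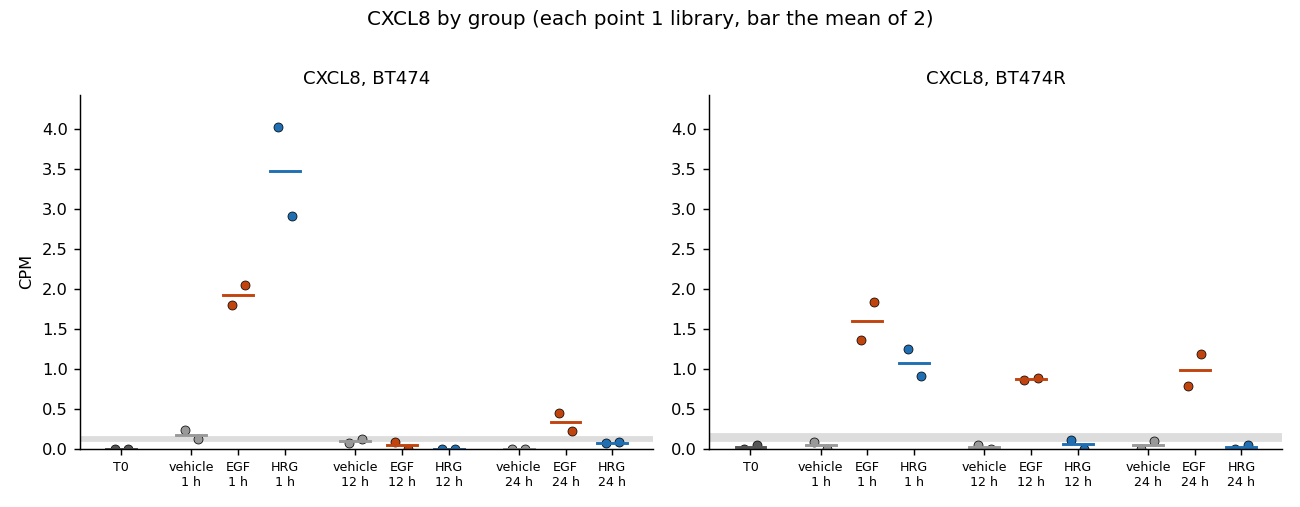
CXCL8 in CPM (vertical axis, linear, from 0) by group, for BT474 (left) and BT474R (right); each point is 1 library, each bar the mean of 2, and the grey band is the range that 3 counts are worth in the libraries of that line. At 1 h the libraries with either ligand lie between 0.909 and 4.02 CPM, and at 12 h only the EGF group of BT474R stands clear of the band, at 0.864 and 0.888 CPM.

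The close relatives of CXCL8 were hardly counted in the same libraries. CXCL1 had 16 counts over the 20 libraries of BT474 and 1 over those of BT474R. Its one group above the limit was EGF at 1 h in BT474, with 4 and 1 counts against 1 and 1 in vehicle, a ratio of 2.01 with an interval of 0.329 to 21.1. HRG at 1 h in BT474 had 3 and 2 counts of CXCL1. CXCL2 had 3 counts over BT474 and 6 over BT474R, and CXCL3 had 1 and 0. CCL20 had 2 counts over BT474 and 0 over BT474R. A total of 0 counts over the 20 libraries of BT474R allows a mean level of up to 0.00611 CPM for CXCL3 and CCL20. No ligand effect on these 4 genes was detectable at this depth, and none of them passed the filter on low counts. CXCL1, CXCL2 and CXCL3 are similar in sequence. How reads that fit several of them were counted is not given in the sources used here, so their low counts are uncertain.

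CXCL10, the interferon-induced member, was counted clearly in 1 group, EGF at 24 h in BT474R. It had 16 and 7 counts there (0.698 and 0.285 CPM), against 0 and 0 in both vehicle and HRG at 24 h. This is at least 3.83-fold above vehicle and at least 3.51-fold above HRG. At 12 h, EGF had 4 and 0 counts and vehicle 0 and 0. CXCL10 did not pass the filter in BT474R, so the fit of that line gives no test. In the fit of both lines, one of the alternatives, EGF at 24 h had an adjusted p of 8.92e-04 over vehicle.

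In BT474, CXCL10 stayed between 0 and 4 counts in every library. EGF at 24 h had 1 and 4 counts and vehicle 3 and 3, a ratio of 0.811 with an interval of 0.196 to 3.19. The EGF effect at 24 h differed between the lines with an adjusted p of 0.043, and this call was lost without any 1 of 6 of the 8 libraries, with adjusted p of 0.0949 to 0.171, and with no filter on low counts (adjusted p = 0.0529). In vehicle at 24 h the lines also differed, with 3 and 3 counts in BT474 and 0 and 0 in BT474R (adjusted p = 0.0383, with 49.3% of all genes called), but both groups were at the limit and the call was lost without any 1 of the 4 libraries (adjusted p of 0.0684 to 0.143).

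CCL28 was a BT474 transcript at low level. It had between 3 and 24 counts in each of the 20 libraries of BT474, with a median of 0.335 CPM and a range of 0.120 to 0.846 CPM. In BT474R it had 7 counts in all, with 0 in 14 of 20 libraries and never more than 2, so it was at the limit in all 10 groups. At T0, 9 and 7 counts stood against 0 and 0, at least 2.15-fold higher in BT474, and in vehicle at 1 h 16 and 14 against 0 and 0, at least 6.01-fold higher. In vehicle, BT474 exceeded BT474R by a ratio of 11.5 at 12 h (interval 1.71 to 493) and of 15.9 at 24 h (interval 2.47 to 666). All 4 differences were called, in comparisons that called 46.9% of all genes at T0 and 50.2%, 49.0% and 49.3% in vehicle at 1, 12 and 24 h. The numbers of members called there were 4 at T0 and 3, 3 and 5 in vehicle, of 6 tested. For CCL28 the tests gave adjusted p of 0.00175 at T0 and 8.67e-06, 0.0185 and 0.00433 in vehicle at 1, 12 and 24 h. The call at 12 h was lost without vehicle replicate 1 of BT474 (adjusted p = 0.218) or of BT474R (adjusted p = 0.107), and that at 24 h without vehicle replicate 1 of BT474R (adjusted p = 0.0674). No ligand effect on CCL28 was called in BT474, where the lowest unadjusted p was 0.0301 with HRG at 1 h, with 8 and 4 counts against 16 and 14.

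**Figure D3:**
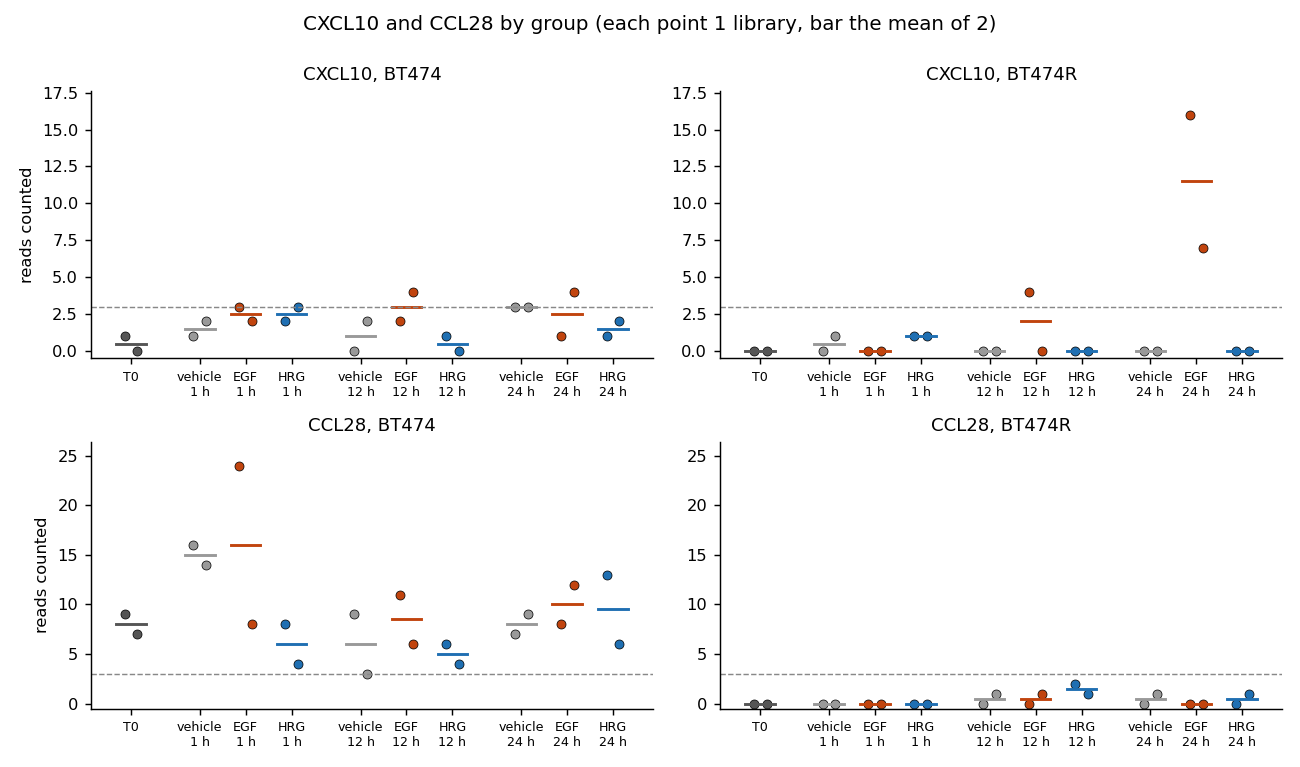
Counts of CXCL10 (top) and CCL28 (bottom) by group, on a linear axis, for BT474 (left) and BT474R (right); each point is 1 library, each bar the mean of 2, and the dashed line is at 3 counts. CXCL10 reaches 16 and 7 counts with EGF at 24 h in BT474R, and CCL28 stays between 0 and 2 counts in every library of BT474R.

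CXCR4 had the highest mean level of the members over the 20 libraries of each line, though not in every group of BT474, and was higher in BT474R throughout. At T0 it had 9.40 and 8.07 CPM in BT474 and 49.9 and 50.6 CPM in BT474R, without overlap, a log2 difference of 2.52 (SE 0.0898) with an adjusted p of 2.09e-23. In vehicle the log2 difference was 2.17 (SE 0.0921) at 1 h, 1.92 (SE 0.0801) at 12 h and 2.16 (SE 0.0807) at 24 h. The lowest library of BT474R (34.8 CPM) was above the highest of BT474 (21.1 CPM). A call between the lines was common among all genes, as given above.

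CXCR4 also moved without any ligand. In BT474, the mean level of vehicle was 7.81 ± 0.303 CPM at 1 h, 13.8 ± 1.06 at 12 h and 14.3 ± 0.589 at 24 h (SD, n = 2), beside 8.73 ± 0.938 at T0. Against T0 the log2 change was 0.65 (SE 0.0988) at 12 h and 0.70 (SE 0.1) at 24 h, both called, in comparisons that called 6.41% and 11.4% of all genes. In BT474R, vehicle had 35.3 ± 0.631 CPM at 1 h, 52.2 ± 4.69 at 12 h and 63.9 ± 0.176 at 24 h (SD, n = 2), beside 50.3 ± 0.505 at T0. It thus fell by 0.51 on the log2 scale (SE 0.0774) at 1 h, with an adjusted p of 4.02e-04, and was 0.355 above T0 (SE 0.0753) at 24 h, with an adjusted p of 0.00278. These comparisons called 2.24% and 13.7% of all genes. Vehicle of the matching time is therefore the base of every ligand effect given here.

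Over that base, EGF raised CXCR4 in both lines at 12 h and 24 h. In BT474, EGF had 18.8 and 18.0 CPM at 12 h against 14.5 and 13.02 CPM in vehicle, and 20.8 and 21.1 CPM at 24 h against 14.7 and 13.9 CPM. In BT474R, it had 82.1 and 77.4 CPM at 12 h against 48.9 and 55.5 CPM, and 106.6 and 107.2 CPM at 24 h against 63.8 and 64.0 CPM. No library with EGF overlapped the vehicle in these 4 comparisons. The log2 fold changes were 0.40 (SE 0.0884) and 0.55 (SE 0.0868) in BT474 and 0.61 (SE 0.0729) and 0.74 (SE 0.0717) in BT474R, with adjusted p of 0.0011, 9.39e-06, 3.58e-06 and 1.23e-07. The EGF effect was not called different between the lines, by 0.197 (SE 0.113) at 12 h and 0.189 (SE 0.112) at 24 h on the log2 scale, with adjusted p of 0.567 and 0.486. In BT474 the effect at 12 h exceeded that at 1 h by 0.53 (SE 0.142, adjusted p = 0.0136), a call lost without vehicle replicate 2 at 1 h (0.0937), EGF replicate 2 at 1 h (0.105) or vehicle replicate 2 at 12 h (0.0685).

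HRG raised CXCR4 in BT474, while in BT474R the call at 12 h depended on the setting and none was made at 24 h. In BT474, HRG had 16.5 and 16.8 CPM at 12 h and 18.9 and 18.7 CPM at 24 h, above vehicle by 0.24 (SE 0.0874) and 0.38 (SE 0.0869) on the log2 scale, with adjusted p of 0.0372 and 0.00102. The call at 12 h was lost with DESeq2 (adjusted p = 0.0854) and without vehicle replicate 2 (0.278) or HRG replicate 1 (0.0656) or 2 (0.176). In BT474R, HRG had 59.9 and 64.9 CPM at 12 h, a log2 change of 0.24 (SE 0.0731, adjusted p = 0.072 by edgeR, or 0.0289 without vehicle replicate 2), and 69.5 and 58.5 CPM at 24 h, on both sides of the vehicle, a change of 0.017 (SE 0.0734, adjusted p = 0.964). The effect at 12 h in BT474R passed the threshold in 4 of 8 alternatives, DESeq2 among them (adjusted p = 0.045), with a lowest adjusted p of 0.00745, and it did not differ detectably from that in BT474 (difference -0.015, SE 0.112, adjusted p = 0.986). HRG against EGF, the log2 difference in BT474R was -0.37 (SE 0.0719) at 12 h and -0.72 (SE 0.072) at 24 h, lower with HRG, with adjusted p of 0.00642 and 5.76e-07. The call at 12 h was lost without HRG replicate 1 (0.192) or EGF replicate 1 (0.214), and on the 4 libraries alone the adjusted p was 0.0586 at 12 h and 0.216 at 24 h. In BT474 the same differences were -0.15 (SE 0.0866) and -0.17 (SE 0.082), with adjusted p of 0.483 and 0.447. The HRG effect at 24 h differed between the lines by -0.394 (SE 0.113, BT474R minus BT474, adjusted p = 0.0428), and this call was lost without any 1 of 7 of the 8 libraries, with adjusted p of 0.0558 to 0.304.

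At 1 h, no ligand effect on CXCR4 was called. EGF in BT474R had 43.3 and 45.1 CPM against 35.7 and 34.8 CPM in vehicle, without overlap, a log2 change of 0.33 (SE 0.0765) with an adjusted p of 0.069. This passed the threshold under 5 of 8 alternatives, with adjusted p of 0.0027 to 0.0653 over all 8. Ordered by mean level, the 10 groups of BT474 ran from EGF at 1 h (7.23 CPM) to EGF at 24 h (21.0 CPM), and 4 of the 9 pairs of neighbours in that order overlapped. In BT474R they ran from vehicle at 1 h (35.3 CPM) to EGF at 24 h (106.9 CPM), and 3 of the 9 pairs overlapped.

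CXCL12, the ligand of CXCR4, fell with both ligands in BT474, and no ligand effect on it was called in BT474R. At 12 h in BT474, vehicle had 10.4 and 10.3 CPM, EGF 5.64 and 6.86 CPM, and HRG 4.01 and 4.13 CPM. At 24 h, vehicle had 12.1 and 11.9 CPM, EGF 6.97 and 7.29 CPM, and HRG 5.32 and 5.16 CPM. At both times every ligand library lay below every vehicle library, and every HRG library below every EGF library. The log2 fold change was -0.75 (SE 0.123) at 12 h and -0.76 (SE 0.116) at 24 h with EGF, and -1.37 (SE 0.128) and -1.21 (SE 0.12) with HRG. The adjusted p were 1.64e-05, 4.82e-06, 5.2e-11 and 3e-10. At 1 h the groups overlapped, with 8.06 and 7.90 CPM in vehicle, 8.29 and 6.63 with EGF and 7.28 and 9.13 with HRG.

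The fall of CXCL12 in BT474 came after 1 h. The HRG effect at 12 h was below that at 1 h, with a log2 difference of -1.40 (SE 0.18, adjusted p = 2.26e-07), and so was the EGF effect, with -0.63 (SE 0.173, adjusted p = 0.0159). The EGF value was lost with DESeq2 (adjusted p = 0.0586) and without vehicle replicate 2 at 1 h (0.0635), EGF replicate 1 at 1 h (0.156) or EGF replicate 1 at 12 h (0.169). HRG was below EGF by -0.62 (SE 0.145) at 12 h, with an adjusted p of 0.0108, where 2.17% of all genes were called. That call was lost without HRG replicate 1 (0.0842) or 2 (0.115) or EGF replicate 2 (0.257). At 24 h the difference was -0.45 (SE 0.131, adjusted p = 0.101). In vehicle, CXCL12 was lower at 1 h than at T0, with a log2 difference of -0.51 (SE 0.117, adjusted p = 0.00389). This call was lost without replicate 2 of T0 (0.0599) or of vehicle (0.0601).

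In BT474R, the level of CXCL12 stayed between 6.10 and 10.4 CPM in all 20 libraries. In vehicle at 24 h, its log2 change from T0 was -0.39, with an adjusted p of 0.0715 by edgeR, or 0.0355 in 1 fit of both lines. The log2 change with a ligand was between 0.0197 and 0.238 in the 6 comparisons with vehicle, and the lowest adjusted p was 0.28. In the order of the 10 groups, all 9 pairs of neighbours overlapped, while in BT474, with a range of group means from 4.07 to 12.0 CPM, 3 of the 9 did. The ligand effect differed between the lines itself, by 0.84 (SE 0.178) for EGF and 1.38 (SE 0.182) for HRG at 12 h, and by 0.99 (SE 0.181) and 1.23 (SE 0.188) at 24 h, as BT474R minus BT474. The adjusted p were 0.00458, 5.09e-06, 3.45e-04 and 4.04e-05. The value for EGF at 12 h was lost without EGF replicate 1 of BT474 (0.0996) or EGF replicate 1 of BT474R (0.0625). Between the lines, CXCL12 differed at T0 by -0.32 (SE 0.126, adjusted p = 0.0352), a call lost without replicate 2 of T0 in BT474 (0.0957) or in BT474R (0.163), and in vehicle at 24 h by -0.78 (SE 0.125, adjusted p = 1.61e-06).

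No ligand effect on CXCL16 was called in either line. In BT474 its level was between 3.03 and 5.52 CPM over the 20 libraries, with a median of 4.12 CPM, and in BT474R between 6.16 and 7.80 CPM, with a median of 6.88 CPM. No library of BT474R overlapped any of BT474. The difference between the lines was 0.93 (SE 0.16) at T0, with 3.56 and 3.03 CPM against 6.30 and 6.32 CPM, and 1.01 (SE 0.153), 0.96 (SE 0.141) and 0.69 (SE 0.145) in vehicle at 1, 12 and 24 h on the log2 scale. The adjusted p were 7.02e-06, 6.35e-07, 3.31e-07 and 1.27e-04. Of the 12 ligand effects, that of EGF at 12 h in BT474R was the farthest from 0, at -0.293 (SE 0.113, adjusted p = 0.105), with 6.32 and 6.31 CPM against 7.80 and 7.67 CPM. Exons of CXCL16 overlap those of MED11 and ZMYND15 on the other strand, and the strand setting of the counting is not given in the sources used here, so reads of these genes cannot be told apart.

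**Figure D4:**
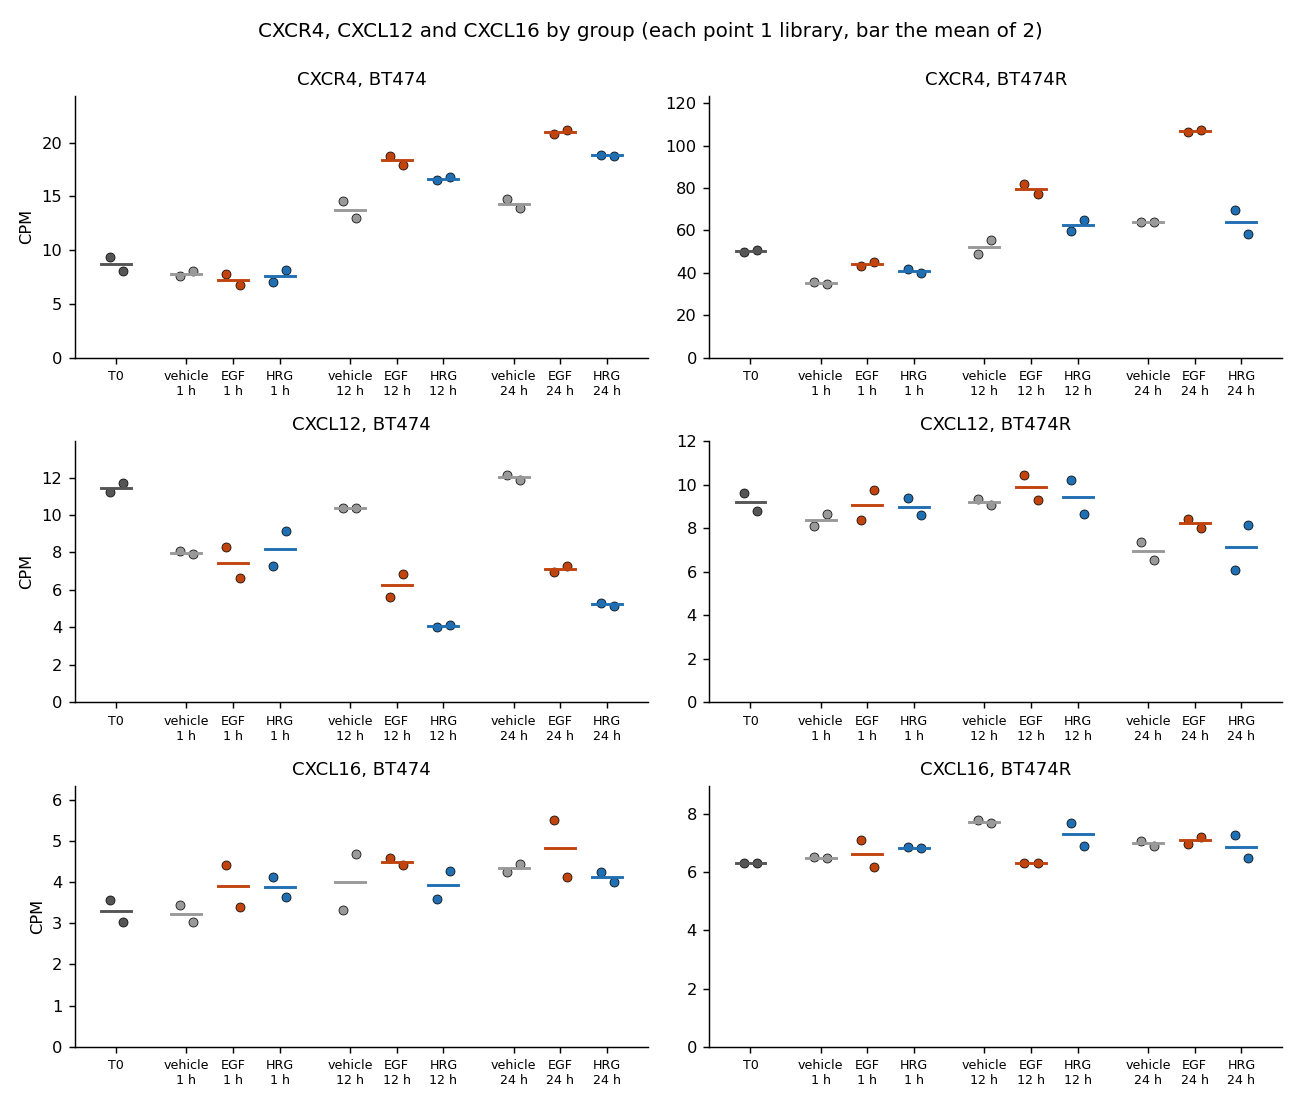
CXCR4 (top), CXCL12 (middle) and CXCL16 (bottom) in CPM by group, for BT474 (left) and BT474R (right); each point is 1 library and each bar the mean of 2. The vertical axes are linear, start at 0 and differ between the panels. CXCR4 reaches 21.1 CPM in BT474 and 107.2 CPM in BT474R with EGF at 24 h, and CXCL12 is lowest with HRG at 12 h in BT474, at 4.01 and 4.13 CPM.

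Counted over the comparisons with vehicle, 6 members could be tested in BT474 and 4 in BT474R. In BT474, 2 were called with EGF at 12 h, CXCR4 up and CXCL12 down, beside 16.0% of all genes, and 3 at 24 h, with CXCL8 also up, beside 16.4%. With HRG, CXCR4 up and CXCL12 down were the 2 called at 12 h, beside 25.8% of all genes, and at 24 h, beside 24.1%. In BT474R, CXCL8 and CXCR4 were called with EGF, both up, at 12 h (12.0% of all genes) and at 24 h (17.3%). With HRG, none was called at 12 h (4.12% of all genes) or 24 h (2.78%) by edgeR. At an unadjusted p under 0.05 there were 1 and 0, and DESeq2 called 1 and 0. At 24 h the number of all genes called was 675 and depended on single libraries, with 107 without vehicle replicate 1, 1236 without vehicle replicate 2 and 2307 without HRG replicate 1, and no member was called without any 1 of the 4 libraries. The duplicates with HRG at 24 h in BT474R also differed most of the 20 groups, with a median chi-square over genes of 2.56 where sampling alone gives 0.455.

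For HRG against EGF in BT474R, the 2 members called were CXCL8 and CXCR4, at 12 h (1.42% of all genes) and at 24 h (5.18%). Between the lines, the EGF effect was called different for 2 of the 6 members tested at 12 h (1.96% of all genes) and for 2 at 24 h (4.01%). The HRG effect was called different for 1 at 12 h (4.07%) and for 2 at 24 h (3.33%). At 1 h none was called by edgeR or by DESeq2, for EGF (0.138% of all genes) or HRG (0.544%), with 1 and 0 at an unadjusted p under 0.05. The comparisons of 1 line and time share their vehicle libraries, so EGF and HRG values are given side by side.

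**Figure D5:**
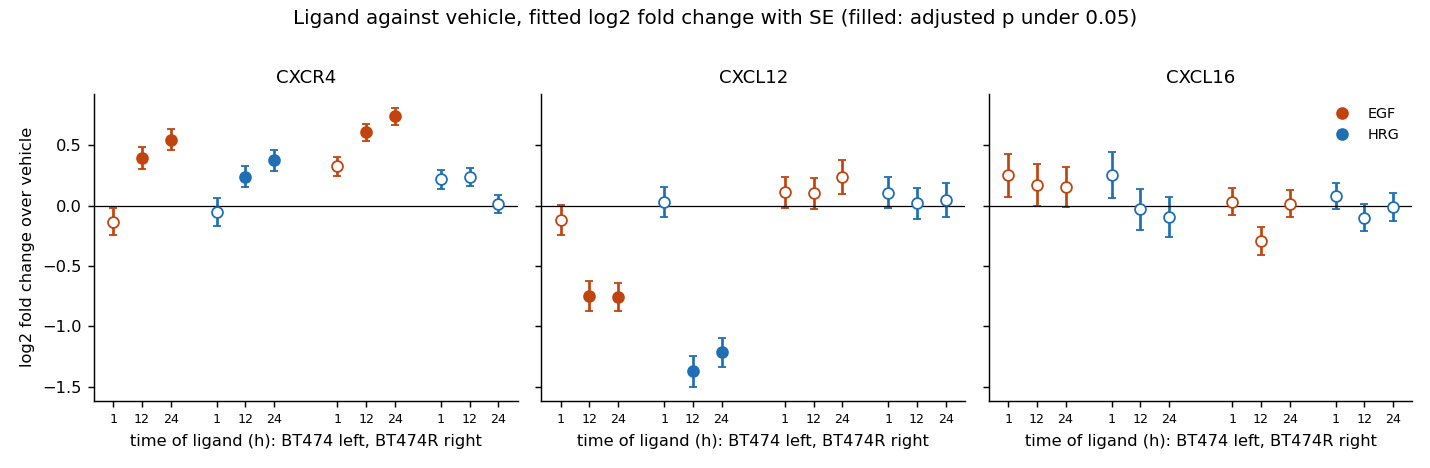
Fitted log2 fold change over the vehicle of the same time point (vertical axis), with its SE as the bar, for CXCR4 (left), CXCL12 (middle) and CXCL16 (right). Each panel has BT474 on the left and BT474R on the right, with EGF and HRG at 1, 12 and 24 h, and filled points have an adjusted p under 0.05. CXCL12 is below 0 at 12 h and 24 h in BT474 only, from -0.75 to -1.37, and no point of CXCL16 is filled.

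Of the receptors that these chemokines act on, ACKR3, which binds CXCL12, was the other one with a clear level. It averaged 31.4 CPM in BT474 and 26.0 CPM in BT474R. In BT474, ACKR3 fell at 24 h with EGF, by -0.34 (SE 0.0702), and with HRG, by -0.37 (SE 0.0693), and rose with EGF in BT474R, by 0.34 (SE 0.0771) at 12 h and 0.31 (SE 0.0757) at 24 h, on the log2 scale. It also rose with HRG at 12 h in BT474, by 0.18 (SE 0.0651). CXCR6, the receptor of CXCL16, averaged 0.507 CPM in BT474 and 0.444 CPM in BT474R, and rose with HRG at 12 h in BT474 by 1.88 (SE 0.457). CXCR2 had 0 counts in all 40 libraries, and CXCR1 and CXCR3 averaged 0.0219 and 0.0487 CPM in BT474 and less in BT474R. CCR6, CCR10 and CCR3 averaged 0.275, 0.0842 and 0.198 CPM in BT474 and 0.323, 0.0555 and 0.259 CPM in BT474R. Of the list of 22 other receptors, 17 could be tested in BT474 and 15 in BT474R, and between 0 and 2 were called in each ligand comparison, where between 0.169% and 25.8% of all genes were called. CCR7, a receptor of lymphoid chemokines, was the one besides ACKR3 that was called with a mean level of 1 CPM or more in that line, and it fell with HRG at 1 h in BT474 by -1.37 (SE 0.365).

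Among the chemokines outside the 10, CX3CL1 and CXCL14 were the ones called in a ligand comparison with a mean level of 1 CPM or more in that line. CX3CL1, which like CXCL16 is made as a membrane protein, averaged 47.0 CPM in BT474 and 68.0 CPM in BT474R. It rose in BT474 in all 6 comparisons, by between 0.49 (SE 0.0711, EGF at 1 h) and 0.74 (SE 0.0812, EGF at 24 h), and in BT474R with EGF at 12 h by 0.99 (SE 0.0765) and at 24 h by 0.60 (SE 0.0779). CXCL14, an epithelial chemokine, averaged 37.4 CPM in BT474 and had 0 counts in all 20 libraries of BT474R. In BT474 it rose at 12 h with EGF, by 0.42 (SE 0.0706), and with HRG, by 0.93 (SE 0.0668), and at 24 h with HRG by 0.37 (SE 0.0684). Of 10 other CXC ligands 4 could be tested in BT474 and 3 in BT474R, and of 29 CC and other ligands 8 and 6. Between 0 and 1 of the first list and between 0 and 2 of the second were called in each ligand comparison, beside 0.169% to 25.8% of all genes. Below a mean of 1 CPM, CCL17 was called up with EGF at 24 h in BT474, and CXCL5 down with EGF at 24 h in BT474R. CCL22, also below it, was called up with EGF at 12 h in both lines and at 24 h in BT474R. With HRG, CCL22 was called up at 12 h and 24 h in BT474. CXCL9 and CXCL11 each had counts in 6 of the 20 libraries of BT474R and did not pass the filter there. Their highest counts in a library were 100 and 20 in BT474R, and 2 and 4 in BT474. In BT474R, both had their highest level in replicate 1 with EGF at 24 h, at 4.36 CPM for CXCL9 and 0.829 CPM for CXCL11. CXCL17 averaged 8.12 CPM in BT474 and 117.6 CPM in BT474R, and no ligand effect on it was called.

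A list of 20 genes was looked at for the factors known to drive chemokine genes and for the enzymes that cut CXCL16. At 1 h in BT474, JUN, FOS, FOSL1 and NFKBIZ rose with both ligands, and NFKBIA, an inhibitor of NF-kappaB, fell, which is 5 of 17 tested beside 2.19% of all genes with EGF and 2.77% with HRG. FOS, a subunit of AP-1, went from 5.44 ± 0.632 CPM in vehicle to 97.04 ± 0.448 with EGF and 137.1 ± 2.00 with HRG (SD, n = 2). In BT474R at 1 h, FOS rose from 3.53 ± 0.392 CPM to 24.7 ± 1.58 with EGF and 13.3 ± 2.68 with HRG (SD, n = 2). With EGF it was also called up in BT474R at 12 h and 24 h, by 1.86 (SE 0.337) and 2.69 (SE 0.281) on the log2 scale, and in BT474 it was called down at those times with both ligands, by between -0.92 and -1.50. JUN, another subunit of AP-1, rose with EGF at 24 h in BT474 by 0.23 (SE 0.0677).

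IRF1, a factor of the interferon response, is given beside CXCL10. In BT474R with EGF, IRF1 rose at 1, 12 and 24 h, by 2.18 (SE 0.219), 3.13 (SE 0.235) and 2.94 (SE 0.242) on the log2 scale. It was not called in any ligand comparison of BT474 or with HRG in BT474R. Over the list, the number called with EGF in BT474R was 5 up and 1 down at 1 h, 7 up and 1 down at 12 h and 9 up and 3 down at 24 h, of 16 tested. Of all genes, 0.457%, 12.0% and 17.3% were called in these comparisons, and the list was chosen with earlier results of these data known. Those up at 24 h included FOS, FOSL1, IRF1, NFKB2, NFKBIZ, TNFAIP3, ADAM10 and ADAM17, and those down were NFKB1, REL and NFKBIA. With HRG in BT474R, FOS was the one called, at 1 h. With EGF at 24 h in BT474R, the median of the list was 0.223 on the log2 scale beside -0.0107 over all genes. ADAM10 rose with EGF in BT474R at 12 h and 24 h, by 0.15 (SE 0.0452) and 0.22 (SE 0.0452), and ADAM17 at 24 h by 0.21 (SE 0.0562). In BT474 at 12 h, ADAM10 was also called up with EGF (172 CPM) and HRG (179 CPM), against 157 CPM in vehicle. ADAM17 was called down there with HRG, at 47.9 CPM against 54.4 CPM in vehicle.

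The genes whose pattern was most like that of each abundant member were found over the 20 group means of log2 CPM, with each line centred on its own mean, among 13899 genes. For CXCR4 they were PLPBP (Pearson r = 0.956), SLC16A3 (0.949), a lactate transporter, and BICDL1 (0.949). For CXCL12 they were GPAT3 (0.918), an enzyme of lipid synthesis, GOLIM4 (0.847) and CST4 (0.845). For CXCL16 the values were lower, with ACO1 at 0.817, RAB7A at 0.797 and GNAS at 0.788. The points of a line share the mean on which they were centred, and the values are a description.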

How the data were processed

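Paired-end RNA sequencing reads were trimmed by the authors with Trim Galore (0.6.6), aligned to GRCh38.p13 with Rsubread and counted per gene with featureCounts, and the deposited values are raw counts per gene, 1 column per library. How strand and multiply aligned reads were handled in the counting, and which annotation release was used, are not given in the sources used here. Groups were taken from the labels. The 10 genes and the other lists were chosen with earlier results of these data known.

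A gene was kept if at least 50% of the libraries in a fit had 1 count or more of it, which left 25146 genes in the BT474 fit, 24287 in that of BT474R and 24641 in the joint fit. Of the 10 genes, 6, 4 and 6 passed. Each line was fitted alone, and both lines together for differences between them, with 1 coefficient per group, in edgeR (4.0.16, R 4.3.3) with TMM scaling and the quasi-likelihood F test. P-values were adjusted by the Benjamini-Hochberg method over all genes tested, at a threshold of 0.05. SE is the size of the log2 change divided by the square root of F. CPM used the effective library sizes of the fit of both lines. Ratios against groups with 1 to 3 counts carry exact 95% intervals, and groups at 0 were set to 3 counts per library for bounds. Intervals and bounds cover counting error only. Data were simulated for EGF against vehicle at 12 h in BT474 with 24750 genes, of which 200 with a mean of at least 1 CPM were changed. Of these, 176 were called, with 71.6%, 92.5% and 100% for changes of 0.5, 1 and 2 on the log2 scale. A further 8 unchanged genes were called. These rates do not cover members with a mean below 1 CPM.

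Named genes were all 10 members, the receptors of the members, and of the other lists those called in a ligand comparison with a mean level of 1 CPM or more in that line, with the 3 genes most alike for each abundant member. CXCL9, CXCL11 and CXCL17 were added for their levels, and CCL22, CCL17 and CXCL5, below that level, for their calls. Alternatives were filterByExpr, no filter, DESeq2 size factors, DESeq2 (1.42.0), replicate blocks, 1 fit of both lines, the 4 libraries compared alone, and leaving out each library. Motifs were searched in promoters of GRCh38.p14, and no coordinates were moved between builds.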

Additional observations from a re-analysis of the deposited data

Results flagged for a closer look

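Ligand effects that differed between the lines by the test of the difference itself are given here as BT474R minus BT474 on the log2 scale, from edgeR's fit of both lines. For CXCL12, the difference was 0.84 with EGF and 1.38 with HRG at 12 h, and 0.99 with EGF and 1.23 with HRG at 24 h. For CXCR4, it was -0.39 with HRG at 24 h. For CXCL8 with EGF at 12 h the fitted difference was 6.11, and for CXCL10 with EGF at 24 h it was 6.88. The CXCL8 and CXCL10 values rest in part on groups at 0 to 3 counts and depend on the prior count, so they are no bound on the size. Groups of 2 libraries allow no test for a library that stands apart.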

How the results depend on the processing

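Of the 55 effects on single members that were called, 35 kept their call and direction in every alternative and without any 1 library, 12 were lost in at least 1 alternative and 18 without at least 1 library. A further 6 were gained in at least 1 setting. Effects at 24 h against 12 h, which are not described, are not counted here. No effect reversed. Calls lost without 1 library are given in the report. Among the alternatives not named there, the HRG effect on CXCR4 between the lines at 24 h had adjusted p of 0.052 with filterByExpr, 0.0519 with no filter, 0.0637 with DESeq2 size factors and 0.0663 with DESeq2. The difference in CXCL10 between the lines in vehicle at 24 h had 0.0631 with no filter and 0.0938 with DESeq2, and that in CCL28 at 12 h 0.0647 with DESeq2. In 1 fit of both lines, CXCL8 in BT474 had 0.0633 for the EGF effect at 12 h against 1 h and 0.0968 for vehicle at 1 h against T0. The cause was not tested. The number of members called with HRG at 12 h in BT474 was 2, and 1 with DESeq2. It was 3 with filterByExpr and with no filter, where CXCL8, at the limit in both groups, was also called lower (adjusted p of 0.0489 and 0.0474, against 0.0585). With EGF at 1 h in BT474R it was 1, and 2 with no filter on low counts, with a replicate block within each time point, with DESeq2, in 1 fit of both lines and on the 4 libraries alone. With HRG at 12 h in BT474R it was 0, and 1 with filterByExpr, with no filter, with DESeq2 and in 1 fit of both lines. For the EGF effect between the lines at 24 h it was 2, and 1 with filterByExpr and with no filter. For the HRG effect between the lines at 24 h it was 2, and 1 with filterByExpr, no filter, DESeq2 size factors and DESeq2.

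Without 1 library, the count ranged from 1 to 2 for HRG at 12 h in BT474, from 0 to 1 for HRG at 1 h and at 12 h in BT474R, from 0 to 1 for the EGF effect between the lines at 12 h (2 with all libraries), and from 1 to 2 for both ligand effects between the lines at 24 h. A group left with 1 library was assumed to vary like the others, and the fits of both lines without 1 library reused the trend of dispersion of the full fit. DESeq2 gave no adjusted p for 6 called effects, which are not counted as lost.

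Same-numbered libraries share only a number: the correlation of their deviations ran from -0.241 to 0.536 over 18 comparisons, above 0.1 in 8. A replicate block changed no call of a member, with 2 members still called for HRG at 12 h in BT474. A block within each time point added CXCR4 with EGF at 1 h in BT474R (adjusted p = 0.047) and CXCL12, HRG against EGF, at 24 h in BT474 (adjusted p = 0.0475). A limit of 3 counts is worth up to 0.180 CPM in the shallowest library, and smaller changes were not detectable for CXCL1, CXCL2, CXCL3, CCL20 and CXCL10.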
